A study of Mus musculus with 4 samples.

Results

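The 8 ETS transcription factor genes Spi1, Spib, Erg, Fli1, Etv6, Ets1, Elf1 and Gabpa were followed across the nuclei of mouse bone marrow progenitors. They were taken by symbol from the 32272 gene rows of the matrix, and with them the 214 of 174339 chromatin peaks that lay within 50 kb of the interval the file gives for each gene. This interval runs between annotated starts for Erg, Ets1, Elf1 and Gabpa. For Spi1, Spib, Fli1 and Etv6 it is a single start position, although these genes have further annotated starts. All 8 symbols matched exactly 1 row. The members were set by name, with earlier results of these data known.

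The study profiled lineage-negative, cKit-positive hematopoietic stem and progenitor cells (HSPCs) by single-nucleus multiome sequencing, in which each nucleus gives both RNA, counted by unique molecular identifier (UMI), and ATAC, the transposase cuts that mark accessible DNA. The samples were an unligated control (Ctrl) and a ligature sample (Lig), the latter with silk tied around the teeth to induce periodontitis, both taken at day 14 from wild-type C57BL/6 males of 8 weeks. Bone marrow of 5 mice was pooled into each sample, so every group held 1 sample and no replicate. The deposited matrix tells the samples apart only by barcode suffixes 1 and 2, which no label ties to Ctrl or Lig. They are called library 1 and library 2, belong to no group, and no value below compares ligature with control.

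Of 8762 barcodes of library 1 and 10199 of library 2, 5905 and 7714 were kept, those with 200 or more genes and between 1000 and 50000 ATAC counts. The libraries held 10294527 and 12537328 UMIs and 118239764 and 128699726 ATAC counts, and the kept nuclei shared 72 barcode sequences between libraries. Genes at the ribosomal RNA locus took 38.7% to 60.9% of the UMIs of a population, so RNA levels are UMIs per 1000000 UMIs outside that locus (CPM). ATAC levels are counts per 1000000 peak counts (ATAC CPM). Ranges in brackets are 95% intervals for counting error alone, exact Poisson for CPM, on pairs of counts for ATAC, and exact binomial for shares.

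Populations were clusters made without the 8 genes, the other ETS genes and the 214 peaks, and were named from marker genes with the suffix "-like". Of 19 populations, 17 had at least 50 nuclei in each library and were ranked, 12 of them named and 5 unnamed. The unnamed ones were cluster 0 (led by Tnf, Nrg1 and F13a1), cluster 1 (Nrg1, Gpr141 and Stxbp6), cluster 5 (Ccnd1, Ephb2 and Runx2), cluster 6 (Slc24a3, Mdga1 and Dach1) and cluster 7 (Ccnb1ip1, Zc3h7a and Nkain2). The genes Iglc1, Igha and Jchain, which plasma cells express, were among those that led the B-like population. Kit, the receptor used in the sort, was highest in stem cell-like (HSC-like) nuclei of library 1, with 616 CPM against 539 CPM in erythroid progenitor-like (EryP-like) nuclei, and in EryP-like nuclei of library 2, with 403 CPM against 370.3 CPM in HSC-like nuclei. It was lowest in monocyte progenitor-like (cMoP-like) nuclei, with 37.0 and 20.4 CPM. B-like nuclei had 64.6 and 56.6 CPM and neutrophil progenitor-like (NeuP-like) nuclei 82.7 and 81.9 CPM of Kit. Free RNA was not removed, and the 11 NeuP markers, which summed to 37207 and 38978 CPM in NeuP-like nuclei, still summed to 512 and 1190.1 CPM in nuclei that resembled NK or T cell progenitors (pro-NK/T-like).

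ETS factors share a winged helix-turn-helix domain that binds DNA around the letters GGAA, and flanking bases favour one subfamily over another. PU.1, the product of Spi1, is a driver of myeloid and B cell differentiation, and its relative Spi-B acts in B cells and plasmacytoid dendritic cells. ERG and FLI1 are closely related factors of stem cells and megakaryocytes, ETV6 is a repressor needed to keep stem cells in the marrow, ETS1 acts in lymphoid cells, ELF1 is broadly expressed in blood, and GABPA is the DNA-binding subunit of GABP, which serves promoters of housekeeping genes.

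The sequences below lie in peaks that were among the 2 with the largest ratio of highest over median population for their member, and these were picked from them after their values were seen. Those of Etv6 and Elf1 do not follow the RNA, since by the mean of the libraries pro-NK/T-like nuclei were 15th of 17 in Etv6 and NeuP-like nuclei 14th in Elf1. They are given on the plus strand of GRCm38, 120 bases each, around the match nearest to the centre of the peak. Capitals mark the PU.1 motif AGAGGAAG where the peak held it on either strand, and otherwise every GGAA core, written TTCC on the other strand. AGAGGAAG lay anywhere in 18.5% of all peaks and GGAA in the central 120 bases alone of 79.2%, and a match is a description of the letters and not a bound site.
Spi1, 6.77 kb upstream, NeuP-like (chr2:91089193-91089312): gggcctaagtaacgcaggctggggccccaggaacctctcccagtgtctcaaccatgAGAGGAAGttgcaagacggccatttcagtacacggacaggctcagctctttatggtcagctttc
Spib, internal start, B-like (chr7:44531379-44531498): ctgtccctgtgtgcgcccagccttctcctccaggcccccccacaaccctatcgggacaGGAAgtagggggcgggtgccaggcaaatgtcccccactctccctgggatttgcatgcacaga
Erg, intron, pro-B-like (chr16:95428375-95428494): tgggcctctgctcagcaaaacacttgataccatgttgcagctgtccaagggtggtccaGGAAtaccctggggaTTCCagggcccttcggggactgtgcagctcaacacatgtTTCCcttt
Ets1, 18.7 kb upstream, B-like (chr9:32617634-32617753): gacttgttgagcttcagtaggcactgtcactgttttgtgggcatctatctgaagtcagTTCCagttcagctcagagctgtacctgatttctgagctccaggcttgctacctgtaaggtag
Ets1, 41.8 kb upstream, pro-NK/T-like (chr9:32594482-32594601): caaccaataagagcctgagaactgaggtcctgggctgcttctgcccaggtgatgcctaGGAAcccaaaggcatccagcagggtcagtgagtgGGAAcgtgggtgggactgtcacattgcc
Etv6, intron, pro-NK/T-like (chr6:134048099-134048218): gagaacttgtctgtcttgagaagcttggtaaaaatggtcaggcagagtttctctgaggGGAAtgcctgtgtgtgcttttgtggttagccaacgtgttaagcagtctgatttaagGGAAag
Elf1, 39.5 kb upstream, NeuP-like (chr14:79441561-79441680): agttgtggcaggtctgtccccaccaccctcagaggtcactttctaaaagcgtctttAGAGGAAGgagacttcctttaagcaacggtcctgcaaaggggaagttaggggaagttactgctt

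Of the 8 members, 7 reached 100 UMIs per library, and Spib, with 23 and 2 UMIs, did not. For 7 of the 7, the population with the highest CPM was the same in both libraries, against 27.0% of the 6394 genes that passed the same minimum. The count was 6 without the highest 8% of doublet scores, where Gabpa was highest in B-like nuclei of library 1 and basophil progenitor-like (BaP-like) nuclei of library 2, and 5 at clustering resolution 0.4, where Etv6 and Elf1 were highest in megakaryocyte progenitor-like (MkP-like) nuclei of library 1 and HSC-like nuclei of library 2. Depth moves this share, and among genes that reached 1000 UMIs per library it was 40.1%, with 3 of 3 such members. The highest population exceeded the median population at least 2-fold in both libraries for 5 of the 7, against 36.1% of genes, and these were Spi1, Erg, Fli1, Ets1 and Gabpa. Gabpa enters both counts on few UMIs in B-like nuclei, with no order of its populations resolved. With CPM over all UMIs the count stayed 5 but Spi1 fell below 2-fold, at 1.93 in the lower library, and Etv6 passed, at 2.15 in place of 1.92. With a minimum of 500 genes per nucleus, which left 11 ranked populations, only 4 members, Erg, Fli1, Etv6 and Elf1, still reached the UMI minimum, and the counts were 3 of 4 and 2 of 4. Per kb of annotated gene span, the level over all nuclei was highest for Etv6, with 4.57 and 2.49 CPM, followed by Elf1 with 4.02 and 2.34 CPM and Fli1 with 3.13 and 2.20 CPM. Spi1 had 1.46 and 1.52 CPM per kb, Gabpa 1.33 and 0.867, Ets1 0.938 and 0.389, Erg 0.875 and 0.454, and Spib 0.645 and 0.0560.

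**Figure D1:**
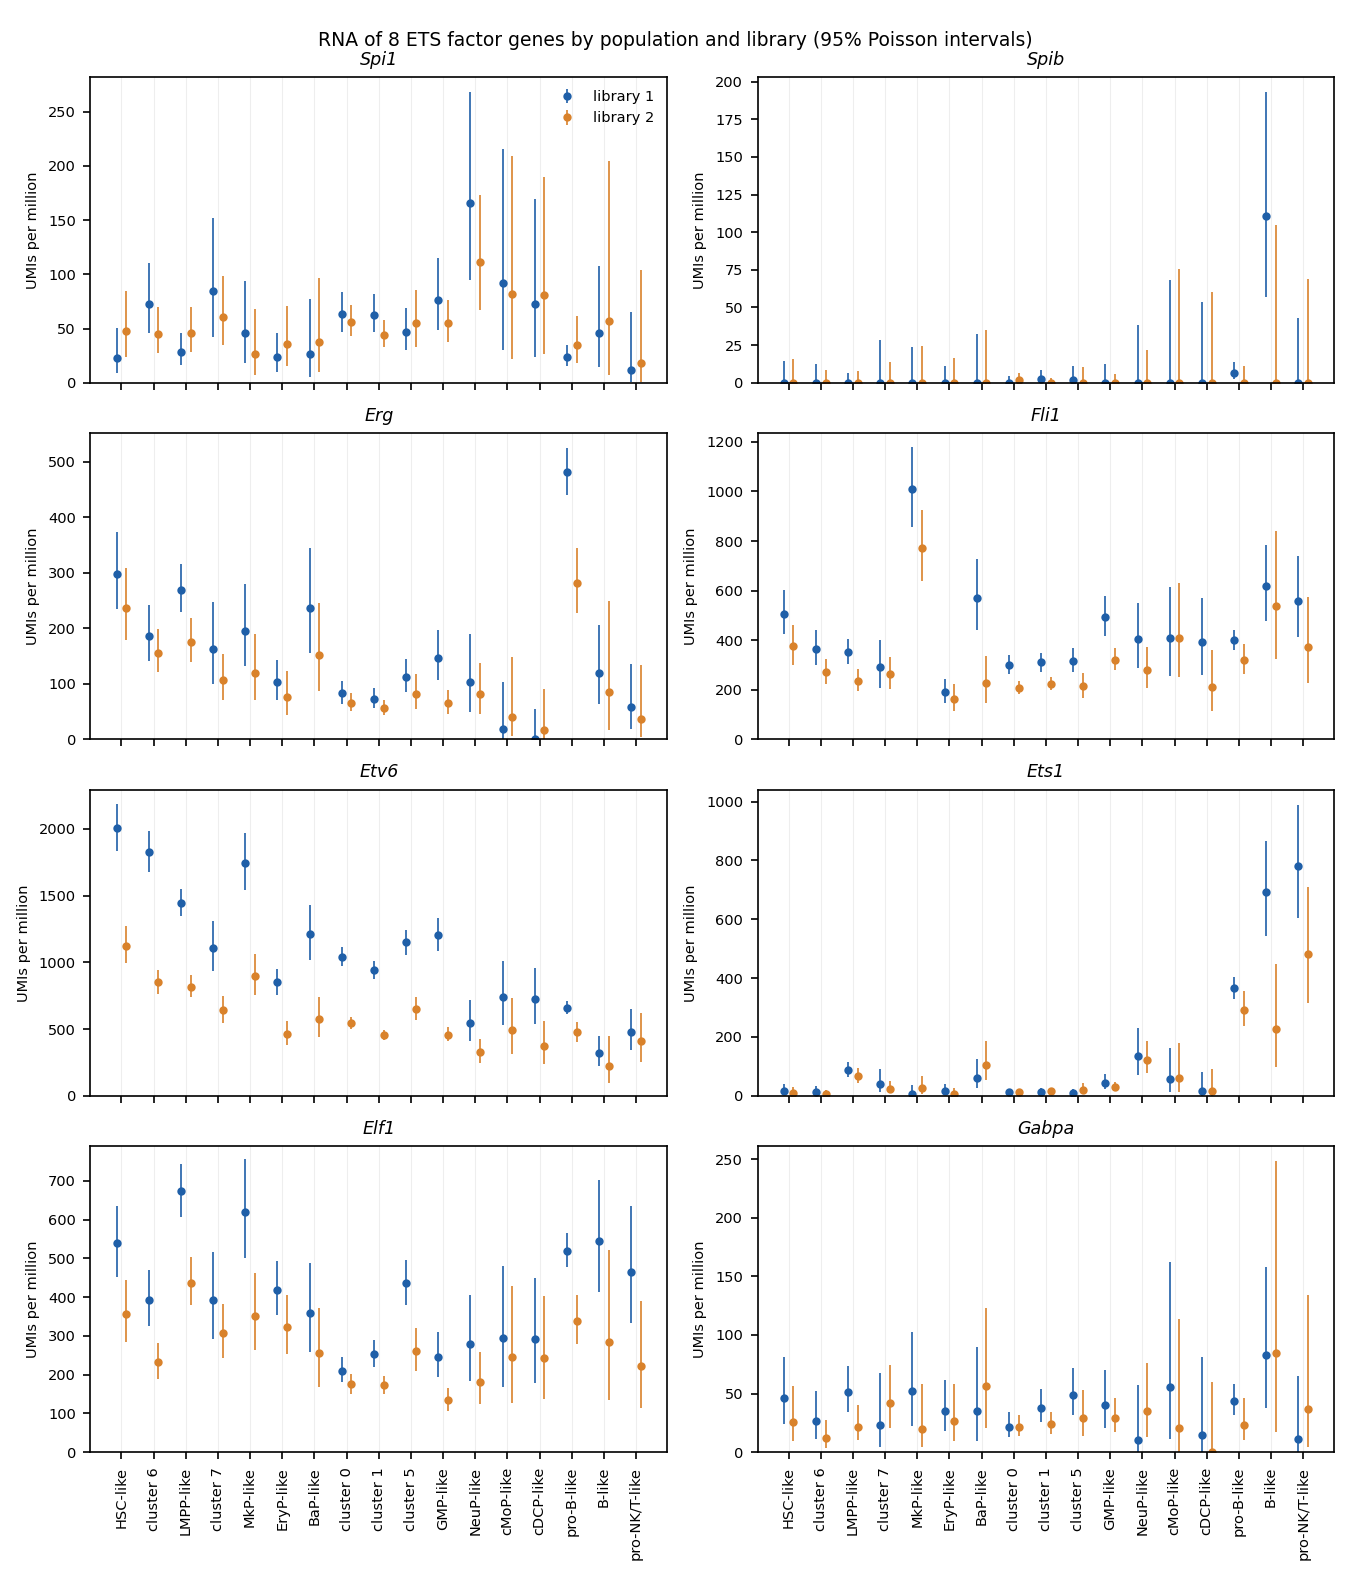
RNA of each member in CPM (vertical axes, from 0) in the 17 populations, with library 1 in blue and library 2 in orange and bars for 95% Poisson intervals. Spi1 was highest in NeuP-like, Erg in pro-B-like, Fli1 in MkP-like, Etv6 in HSC-like and Ets1 in pro-NK/T-like nuclei of both libraries, and Spib was near 0 outside B-like nuclei of library 1.

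Spi1 (ENSMUSG00000002111, chr2:91082390-91115756, plus strand) was highest in NeuP-like nuclei, with 165.4 CPM in library 1 (94.5 to 269, 16 UMIs) and 111.1 CPM in library 2 (66.9 to 174, 19 UMIs). The median population had 46.5 and 47.4 CPM, so the ratio was 3.56 and 2.35. By the mean of the libraries, cMoP-like nuclei followed with 92.4 and 81.7 CPM and nuclei like progenitors of conventional dendritic cells (cDCP-like) with 72.8 and 81.2 CPM, on 4 or 5 UMIs each. In library 1, cluster 7 with 84.8 CPM, granulocyte-monocyte progenitor-like (GMP-like) nuclei with 76.7 CPM and cluster 6 with 73.1 CPM stood above cDCP-like nuclei. Myeloid populations were at the top of the order by this mean, although no pair of neighbours in it had intervals apart in both libraries. At the other end, pro-NK/T-like nuclei had 11.6 and 18.6 CPM on 1 UMI in each library, and pro-B-like nuclei, which are better covered, had 23.8 CPM (15.4 to 35.2) and 35.2 CPM (18.2 to 61.5). The intervals of NeuP-like nuclei lay above those of 2 of the 16 other populations in both libraries. Plasmacytoid dendritic progenitor-like (pDCP-like) nuclei, too few to be ranked, had 42.7 and 115.1 CPM on 2 UMIs each.

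ATAC counts within 50 kb of Spi1 were highest in NeuP-like nuclei too, with 380.5 (345 to 418) and 369 ATAC CPM (341 to 397), against a median of 276 and 277, and lowest in pro-NK/T-like nuclei, with 204 and 216. The highest over the median was 1.38 and 1.33 times, against 1.44 and 1.41 for the median gene with a peak in its window. Over the 17 populations, Pearson's r between RNA in CPM, without a log, and the ATAC level was 0.85 in library 1 and 0.87 in library 2. It is a description of points that share their nuclei and libraries. The peak with the highest ATAC CPM in NeuP-like nuclei was at the upstream annotated start (chr2:91082681-91083557), with 60.5 and 60.2 ATAC CPM, 2.27 and 2.14 times the median population. The GMP-like nuclei had 34.4 and 39.8 there, EryP-like nuclei 14.3 and 14.6, and pro-NK/T-like nuclei 10.98 and 21.9. The peak at the downstream annotated start (chr2:91096361-91097215) had 37.1 and 45.1 ATAC CPM in NeuP-like, 33.0 and 23.9 in BaP-like and 4.62 and 4.56 in pro-NK/T-like nuclei.

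The Spi1 peak with the largest ratio in its lower library lay 6.77 kb upstream of that start, within an intron of the longer transcripts (chr2:91088881-91089780), and holds the PU.1 motif printed above. It had 17.2 and 19.98 ATAC CPM in NeuP-like, 6.58 and 13.1 in GMP-like and 1.04 and 0 in B-like nuclei, a ratio over the median population of 5.94 and 7.50. Of the 21 Spi1 peaks with at least 200 counts in each library, 9 had the same highest population in both libraries at 2-fold or more over the median, against 25% of all peaks with that depth. This population was NeuP-like for 7 of the 9, or 7 of the 21, against 2.72% of all peaks with that depth. The 7 lie between 14.9 kb upstream and 17.4 kb downstream of the start. Of the other 2, a peak 42.7 kb downstream in an exon of the neighbouring gene Madd had 16.6 and 24.5 ATAC CPM in cDCP-like nuclei. Transcripts of Madd and Mybpc3 share this window.

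Spib (ENSMUSG00000008193, chr7:44525993-44532071, minus strand) was too sparse in RNA to be ranked, and most of its UMIs came from B lineage nuclei of library 1. B-like nuclei of library 1 held 12 of its 23 UMIs, or 110.7 CPM (57.2 to 193), and pro-B-like nuclei held 7, or 6.67 CPM. In library 2, B-like nuclei held 0 UMIs, which at 82 nuclei allows up to 84.95 CPM by the limit of 3 counts, under the 110.7 CPM of library 1 but within its interval, so a difference was not resolved at this depth. The pDCP-like nuclei held 1 and 0 UMIs. ATAC counts within 50 kb were highest in B-like nuclei of both libraries, with 566 (520 to 616) and 581 ATAC CPM (500.5 to 672), and these intervals lay above those of the other 16 populations in both libraries. NeuP-like nuclei followed with 462 and 438.5.

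Within the Spib window the peak at an internal start of Spib (chr7:44531073-44531791) had 39.5 and 36.2 ATAC CPM in B-like nuclei, against 17.8 and 17.4 in pro-B-like nuclei, while cMoP-like nuclei had 0.828 and 1.72. Its ratio over the median population was 13.7 and 14.0. The peak at the outer start (chr7:44531916-44532651) had 10.9 and 26.8 ATAC CPM in B-like nuclei. Another (chr7:44534015-44534891), in an exon of the neighbouring polymerase gene Pold1, had 86.3 and 72.5. Unlike these, the peak 25 kb upstream (chr7:44556627-44557520) was highest in NeuP-like nuclei, with 23.4 and 19.4, followed by GMP-like nuclei, with 9.51 and 7.64, and it had no count in pro-NK/T-like nuclei. Of 18 Spib peaks with enough counts, 7 passed the 2-fold rule, against 25% of all peaks, and 5 had B-like nuclei highest, against 1.95%. Other genes lie in the same window, so these counts are not those of Spib alone.

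Erg (ENSMUSG00000040732, chr16:95359169-95586593, minus strand) was highest in pro-B-like nuclei, with 481 CPM in library 1 (440 to 524, 504 UMIs) and 281 CPM in library 2 (228 to 344, 96 UMIs), 4.01 and 3.44 times the median population. The HSC-like nuclei came next, with 298 CPM (235 to 373) and 237 CPM (178 to 308), then lymphoid-primed multipotent progenitor-like (LMPP-like) nuclei with 269 and 175 CPM. In library 2 the pro-B-like and HSC-like intervals overlapped, in library 1 they did not. The intervals of HSC-like nuclei lay above those of 9 other populations in both libraries. Erg had 0 and 1 UMIs in cDCP-like nuclei, where 0 allows up to 43.7 CPM and 1 up to 90.5 CPM, and 1 and 2 UMIs in cMoP-like nuclei. B-like nuclei had 119.9 and 84.95 CPM on 13 and 3 UMIs, and the interval of pro-B-like nuclei lay above theirs in library 1 but not in library 2. Within 50 kb of the Erg interval, ATAC counts were highest in pro-B-like nuclei, with 312 and 308 ATAC CPM, and their intervals lay above those of the other 16 populations in both libraries.

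Among the peaks with enough counts, the one with the largest ratio of all 8 windows lay in the Erg window. An intronic peak 30.8 kb downstream of the internal start (chr16:95428147-95428719) had 45.2 and 44.5 ATAC CPM in pro-B-like nuclei, from 931 and 336 counts. In both libraries it held under 200 counts outside pro-B-like nuclei, so it reached the depth minimum only through them. It is among the pro-B-like peaks counted below. B-like nuclei had 18.7 and 18.9, LMPP-like nuclei 8.55 and 4.96, and cMoP-like nuclei no count in either library, and the ratio over the median population was 51.1 and 50.2. The median of library 1 was near the floor, NeuP-like nuclei on 2 counts, and that of library 2 was cluster 1 on 24 counts. A neighbouring peak (chr16:95427424-95428036) had 41.3 and 37.8 in pro-B-like nuclei, against 26.0 and 28.4 in B-like nuclei and no count in cDCP-like nuclei. Of 27 Erg peaks with enough counts, 13 passed the 2-fold rule, against 25% of all peaks, 7 with pro-B-like nuclei highest, against 3.16%, and 3 with NeuP-like, against 2.72%. Another 2 had BaP-like and 1 had cDCP-like nuclei highest, for which no share over all peaks was taken. The steepest of the NeuP-like ones (chr16:95464338-95465249) had 31.4 and 40.8 ATAC CPM.

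The peak at the internal start (chr16:95459070-95459805) had 29.3 ATAC CPM (26.1 to 32.8) and 26.4 (21.4 to 32.1) in pro-B-like nuclei, 16.9 and 13.7 in HSC-like, 12.9 and 10.95 in cluster 6 and 5.20 and 0 in B-like nuclei. As in the RNA, pro-B-like nuclei stood first and HSC-like nuclei next. The peak nearest to the outermost start (chr16:95585247-95586163) had 12.3 and 10.7 in pro-B-like nuclei, and its highest population exceeded the median by only 1.21 and 1.41 times. Promoters were matched by symbol for 5 of the 8 members in RefSeq (GRCm38.p6), 8 sequences in all. The one at the internal Erg start is shown because its peak followed the RNA, on the minus strand, 300 bases (chr16:95459299-95459598), with the 2 GGAA cores in capitals as TTCC. GGAA or TTCC lay in 95.98% of the 32851 promoters of the same length.
Erg, internal start: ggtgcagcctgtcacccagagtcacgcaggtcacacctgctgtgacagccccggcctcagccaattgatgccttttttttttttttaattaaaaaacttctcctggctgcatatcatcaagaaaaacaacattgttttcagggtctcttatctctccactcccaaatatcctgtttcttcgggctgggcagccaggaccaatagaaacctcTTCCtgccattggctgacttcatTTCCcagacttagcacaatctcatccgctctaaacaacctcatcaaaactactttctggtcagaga

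**Figure D2:**
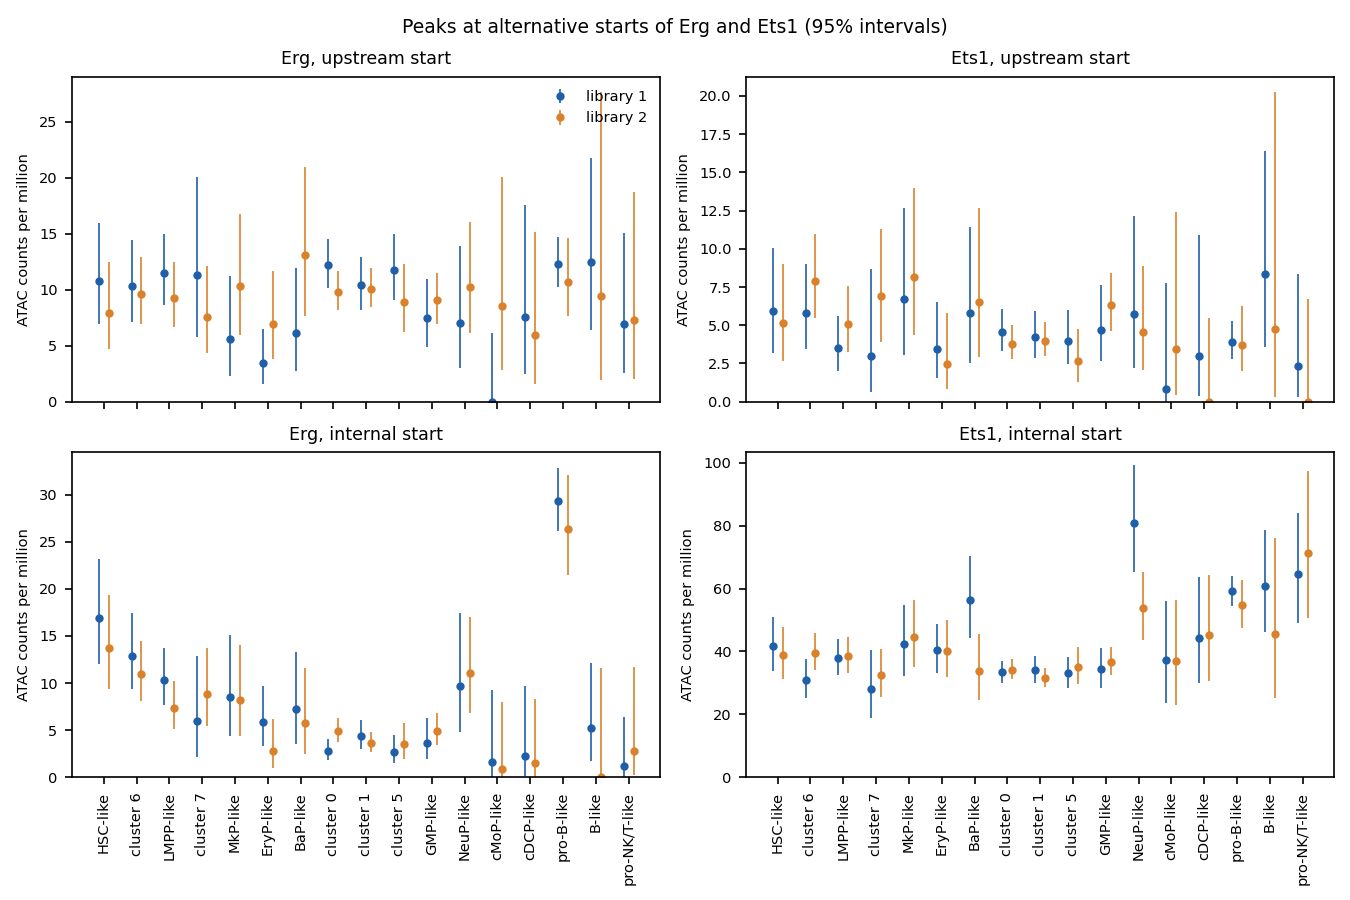
ATAC CPM (vertical axes, from 0, scales differ) at the outer and the internal start peaks of Erg and Ets1 in 17 populations, with library 1 in blue, library 2 in orange and bars for 95% intervals. The internal Erg start stood at 29.3 and 26.4 in pro-B-like nuclei, and the internal Ets1 start was open in every population, from 28.1 to 80.9 in library 1.

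Fli1 (ENSMUSG00000016087, chr9:32422204-32542861, minus strand), an activator of megakaryocyte genes, was highest in MkP-like nuclei. They had 1009 CPM in library 1 (856 to 1181, 155 UMIs) and 771 CPM in library 2 (637 to 925, 116 UMIs), 2.52 and 2.86 times the median. These intervals lay above those of 15 of the 16 other populations in both libraries, all but B-like nuclei, which had 618 and 538 CPM. The lowest level was in EryP-like nuclei, with 190.4 CPM (147 to 243) and 161 CPM (113 to 223). In contrast to its RNA, the ATAC level within 50 kb varied little, from 179 to 280 ATAC CPM in library 1, and MkP-like nuclei had 223 and 216, close to the medians of 224 and 227. The highest over the median was 1.25 and 1.38 times, against 1.44 and 1.41 for the median gene with a peak in its window. The gene spans 121 kb, and much of its body lies outside this window. Pearson's r between RNA and ATAC was 0.23 and 0.30.

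A peak 11.8 kb downstream of the start (chr9:32529381-32530318) was highest in MkP-like nuclei, but at a low level of 7.06 and 7.24 ATAC CPM from 19 and 23 counts. A peak 34.1 kb downstream (chr9:32507131-32507914), which holds 1 PU.1 motif, had 33.5 and 32.0 in pro-NK/T-like and 1.49 and 1.26 in MkP-like nuclei. The start peak (chr9:32540955-32541826) ranged less, with 29.9 and 34.7 in pro-B-like nuclei, against 26.4 and 29.6 in MkP-like nuclei. Of 27 Fli1 peaks with enough counts, 6 passed the 2-fold rule, against 25% of all peaks with that depth.

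Etv6 (ENSMUSG00000030199, chr6:134035700-134270158, plus strand) had the most UMIs of the 8 genes and was highest in stem cell-like nuclei. HSC-like nuclei had 2007 CPM in library 1 (1838 to 2187, 518 UMIs) and 1124 CPM in library 2 (992 to 1269, 261 UMIs). By the mean of the libraries, cluster 6 followed with 1823 and 849 CPM, MkP-like nuclei with 1744 and 898 CPM and LMPP-like nuclei with 1444 and 818 CPM. In library 2 MkP-like nuclei stood above cluster 6. The lowest levels were in B-like nuclei, with 323 CPM (225 to 449) and 227 CPM (97.8 to 446). The ratio of HSC-like nuclei to the median was 1.92 and 2.29, and their intervals lay above those of 14 other populations in both libraries. The ATAC level within 50 kb had another order, with cDCP-like nuclei highest, 187 and 179 ATAC CPM, cMoP-like nuclei at 185 and 179, and HSC-like nuclei below the medians of 127 and 138, at 114 and 109.7. The gene spans 234 kb, and most of its body lies outside this window. Pearson's r between RNA and ATAC was 0.07 and 0.00.

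Peaks of the Etv6 window were opened most in several lineages. The peak 12.4 kb downstream (chr6:134047701-134048484) was highest in pro-NK/T-like nuclei, with 13.3 and 20.1 ATAC CPM, and the peak 16.7 kb upstream (chr6:134018564-134019427) in GMP-like nuclei, with 6.15 and 9.96. In library 1 the upstream peak held under 200 counts outside GMP-like nuclei, so it reached the depth minimum only through them. Intronic peaks 8.03 kb and 20 kb downstream were highest in MkP-like nuclei, with 12.3 and 14.5 (chr6:134043328-134044127) and 17.1 and 21.7 (chr6:134055268-134056133).

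Ets1 (ENSMUSG00000032035, chr9:32636221-32757820, plus strand), a factor of T, NK and B cells, had the largest ratio of highest to median population in RNA among the 7 members that passed the UMI minimum. The pro-NK/T-like nuclei had 780 CPM in library 1 (604 to 990, 67 UMIs) and 483 CPM in library 2 (316 to 708, 26 UMIs), 20.2 and 18.2 times the medians of 38.6 and 26.6 CPM. B-like nuclei had 692 CPM (544 to 867) and 227 CPM (97.8 to 446) and pro-B-like nuclei 365 CPM (330 to 404) and 293 CPM (239 to 357). The pro-B-like nuclei were separated in both libraries from the next population, NeuP-like with 134 and 123 CPM, and this was the only step between neighbours, over all members' RNA, that held in both libraries. The lowest levels were 6.51 CPM in MkP-like nuclei of library 1 and 4.48 CPM in EryP-like nuclei of library 2, each on 1 UMI. The pDCP-like nuclei had 192 and 115.1 CPM on 9 and 2 UMIs.

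The 3 populations with the most Ets1 RNA also had the most ATAC counts near the gene. Within 50 kb, B-like nuclei had 443 ATAC CPM (402 to 487) and 384 (319 to 459), pro-B-like nuclei 319 and 312, and pro-NK/T-like nuclei 301 and 321, each above 14 other populations in both libraries. The medians were 156 and 163, so B-like nuclei exceeded them 2.84 and 2.36 times. Different peaks were highest in each lymphoid population. The peak 41.8 kb upstream (chr9:32593953-32595032) had 34.7 and 50.2 ATAC CPM in pro-NK/T-like nuclei, against 1.04 and 4.73 in B-like and none in cDCP-like nuclei, 29.3 and 34.8 times the median. In library 1 it held under 200 counts outside pro-NK/T-like nuclei, so it reached the depth minimum only through them. The peak 18.7 kb upstream (chr9:32617174-32618029) had 33.3 and 33.1 in B-like nuclei, 33.7 and 35.1 times the median, while pro-B-like nuclei had 10.002 and 10.2 and pro-NK/T-like nuclei 3.47 and 3.65. These medians were near the floor, cluster 7 on 2 counts in library 1 and MkP-like nuclei on 3 counts in library 2. A peak 69.9 kb downstream of the outer start was highest in pro-B-like nuclei (chr9:32705698-32706620), with 56.3 and 49.97 from 1160 and 377 counts.

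The starts of Ets1 also differed in depth. The outer start peak (chr9:32635708-32636590) held 516 and 597 counts in all, and the internal one (chr9:32695543-32696447) 4937 and 4836. The internal peak had 64.7 and 71.2 ATAC CPM in pro-NK/T-like, 80.9 and 53.7 in NeuP-like nuclei, pro-B-like nuclei had 59.2 and 54.6, and no population fell below 28.1 in library 1. Its contrast was smaller than that of the upstream peaks, with ratios of 2.003 and 1.84. Pearson's r between RNA and the ATAC level of the window was 0.88 and 0.82. Of 22 peaks with enough counts, 8 passed the 2-fold rule, against 25% of all peaks. B-like nuclei were highest in 4 (1.95% of all peaks), pro-NK/T-like in 2 (2.42%), pro-B-like in 1 (3.16%) and NeuP-like in 1 (2.72%). The windows of Ets1 and Fli1 overlap, and 3 peaks of the 214 lie in 2 windows.

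**Figure D3:**
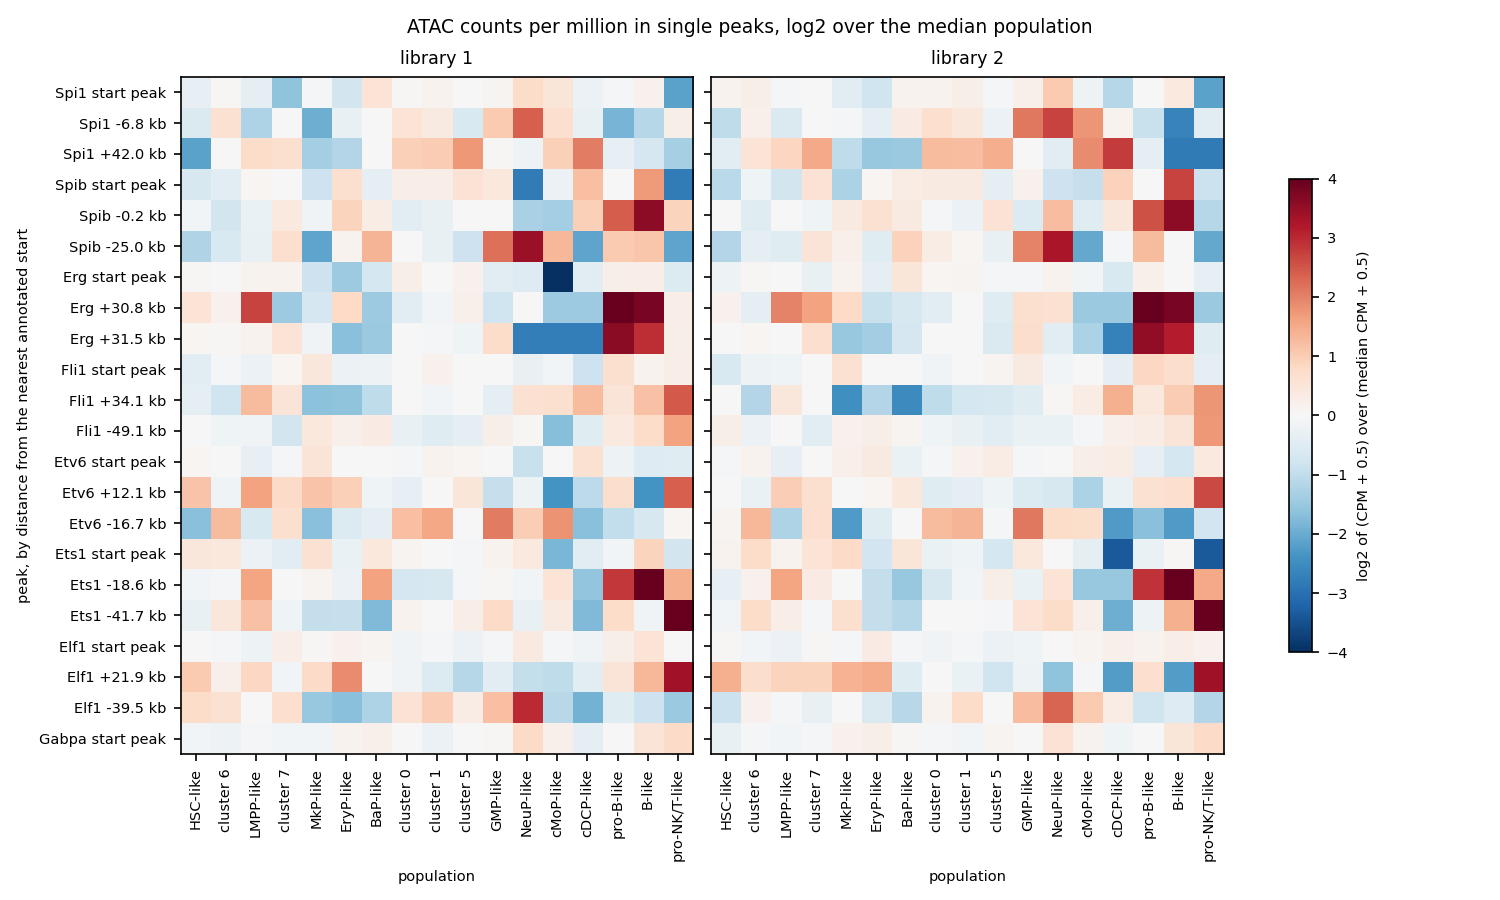
ATAC CPM of the start peak and up to 2 further peaks per member (rows, with distance from the nearest annotated start) in 17 populations (columns), as log2 over the median population with 0.5 added, for library 1 (left) and library 2 (right). Red cells mark the pro-B-like and B-like columns at the Erg peaks, B-like at Spib and Ets1, NeuP-like at Spi1, Spib and Elf1 and pro-NK/T-like at Ets1, Fli1, Etv6 and Elf1 peaks, while most start peaks stay near 0.

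Elf1 (ENSMUSG00000036461, chr14:79481194-79582494, plus strand) had the smallest such ratio of these 7 members. It was highest in LMPP-like nuclei, with 673 CPM (607 to 744, 382 UMIs) and 437 CPM (379 to 502, 200 UMIs), 1.71 times the median in both libraries, but these intervals overlapped those of MkP-like nuclei, with 618 and 352 CPM. At resolution 0.4 MkP-like nuclei of library 1 and HSC-like nuclei of library 2 were highest. Without correction between libraries an unnamed cluster was highest in both, with 379 of its 382 nuclei in the pro-B-like population. The lowest were cluster 0 in library 1, with 211 CPM, and GMP-like nuclei in library 2, with 134 CPM. The start peak (chr14:79481103-79481869) is shared with the gene Wbp4 on the other strand and had counts in every population, with the lowest at 46.6 ATAC CPM in cluster 5 of library 1 and 47.2 in LMPP-like nuclei of library 2. Of 27 peaks with enough counts, 7 passed the 2-fold rule, a share near the 25% of all peaks. The peak 39.5 kb upstream (chr14:79441198-79442114), with the PU.1 motif shown above, had 35.8 and 25.4 in NeuP-like, 10.2 and 11.8 in GMP-like and 1.16 and 1.83 in pro-NK/T-like nuclei. The peak 56.4 kb downstream (chr14:79537219-79538054) had the reverse, with 27.2 and 23.7 in pro-NK/T-like and 0.884 and 0.270 in NeuP-like nuclei.

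Gabpa (ENSMUSG00000008976, chr16:84834925-84863779, plus strand) was low in every population. B-like nuclei were highest, with 83.0 CPM (38.0 to 158) and 85.0 CPM (17.5 to 248) on 9 and 3 UMIs, and no other population lay below these intervals in both libraries, so no order was resolved at this depth. The start peak (chr16:84834613-84835453) is shared with Atp5j and had 93.7 and 88.5 ATAC CPM in pro-NK/T-like nuclei, 1.70 and 1.69 times the median. None of its 5 peaks with enough counts passed the 2-fold rule. The start peak holds the canonical ETS motif CCGGAAGT, which is also the letters GABP binds, and it is shown with 30 bases on the plus strand (chr16:84834847-84834876) with the motif in capitals, written ACTTCCGG. This motif lay in 1.85% of all peaks and in 4.74% of those within 1 kb of a gene start.
Gabpa, start peak: gccaccgttctACTTCCGGccctggctccg

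Over the 8 windows, ATAC levels within 50 kb had the same highest population in both libraries for 5 of 8 members, against 45.6% of the 28038 genes with a peak there. They were Spi1, Spib, Erg, Etv6 and Ets1. Of the 214 peaks, 163 had at least 200 counts in each library, and 55 of them, or 33.7%, had the same highest population in both libraries at 2-fold or more over the median, against 25% of all 103952 peaks with that depth. The 55 became 14 with a minimum of 500 genes per nucleus, which left fewer nuclei and 11 ranked populations. The share over all peaks was not taken at that setting, so the 2 counts cannot be compared as shares. NeuP-like nuclei were highest in 15 of the 163, or 9.20%, against 2.72% of all peaks. B-like nuclei were highest in 11 (6.75% against 1.95%), pro-B-like nuclei in 8 (4.91% against 3.16%) and pro-NK/T-like nuclei in 6 (3.68% against 2.42%). Shares of so few peaks in 8 windows, neighbours within which are not independent, are a description.

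**Figure D4:**
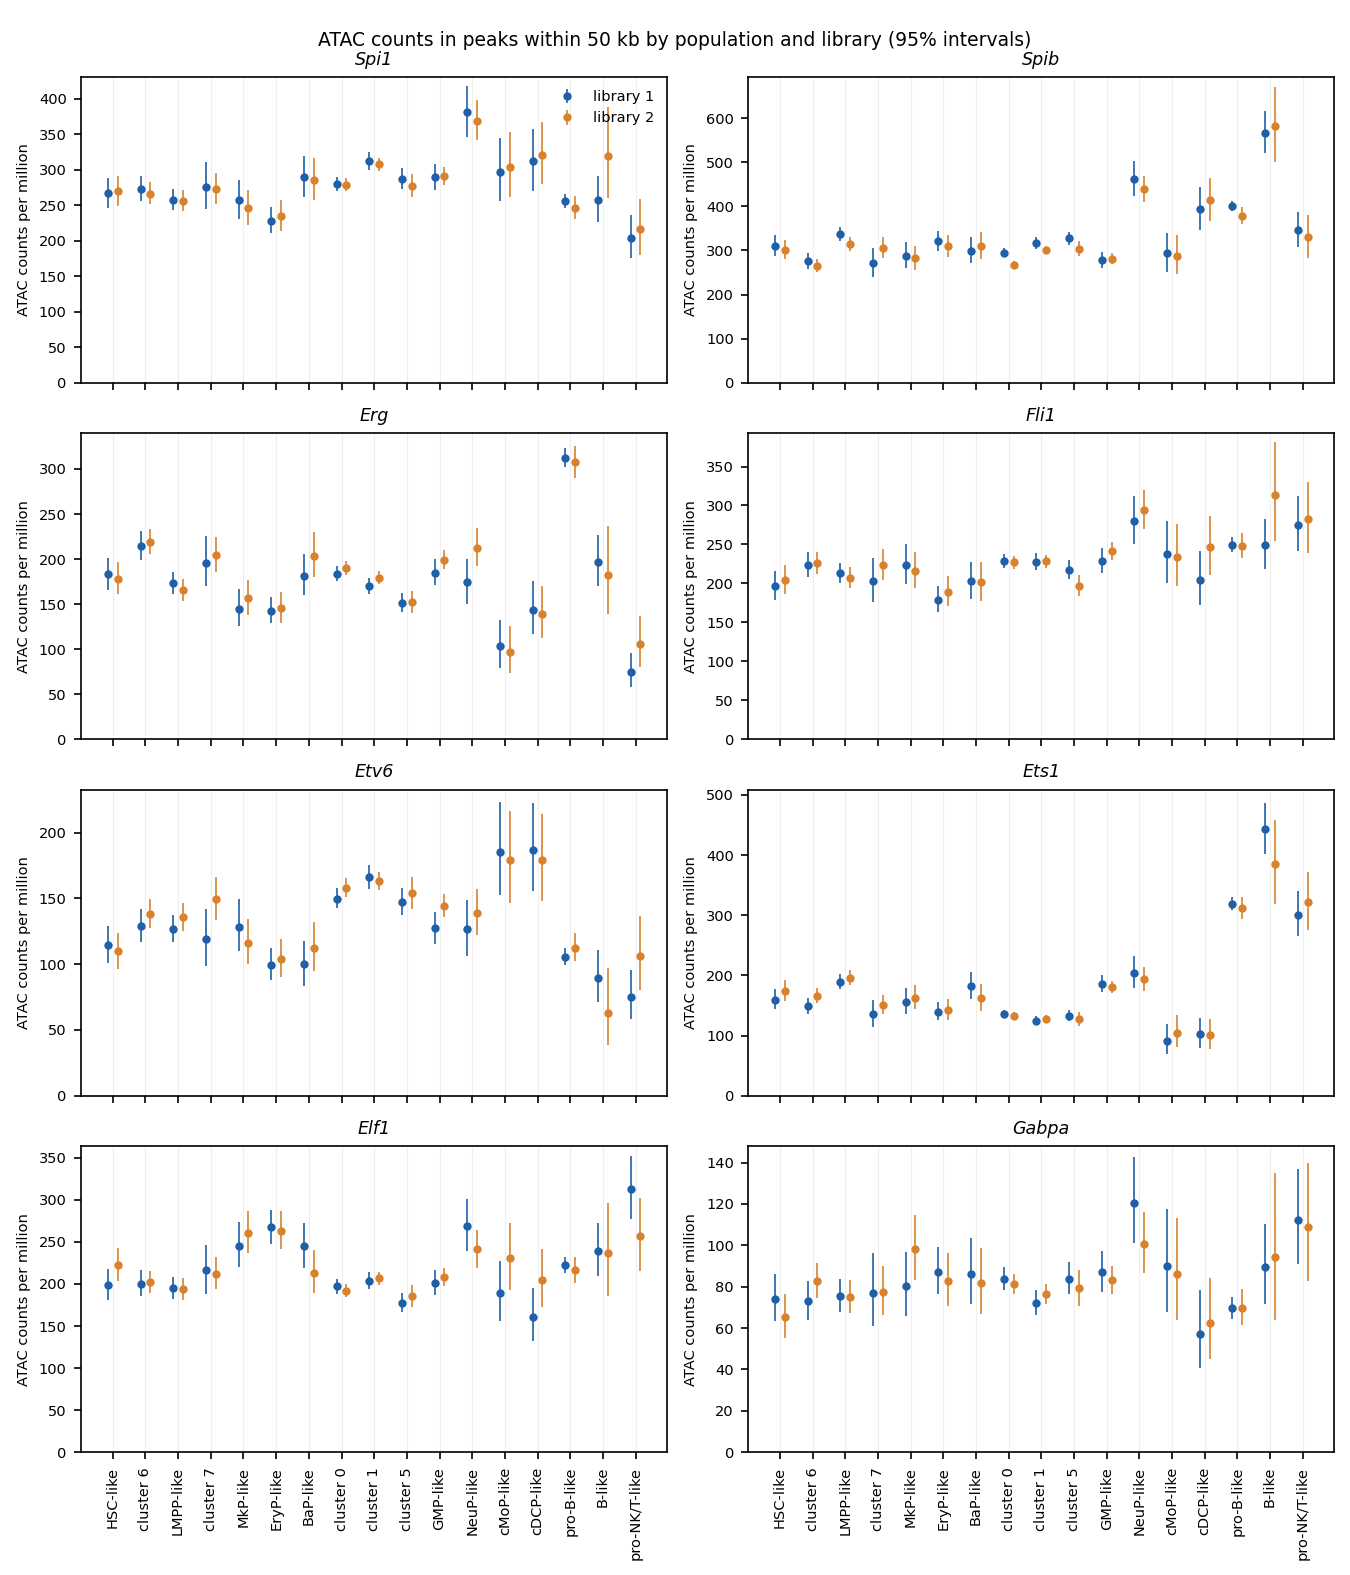
ATAC CPM in all peaks within 50 kb of each member (vertical axes, from 0) in 17 populations, with library 1 in blue, library 2 in orange and bars for 95% intervals. Spib and Ets1 were highest in B-like, Erg in pro-B-like and Spi1 in NeuP-like nuclei of both libraries, while Gabpa, Fli1 and Elf1 had no highest population in common.

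Motif content was set beside the members' RNA. Peaks over 1 kb from any gene start were taken, and the share of their counts in peaks with the PU.1 motif AGAGGAAG on either strand was computed. This motif lay in 19.4% of the 139675 such peaks. With peaks at starts included, it lay in 18.5% of all peaks and in 31 of the 214 member peaks, or 14.5%. The share was highest in cDCP-like nuclei, with 23.8% (23.7 to 24.0%) and 23.5% (23.4 to 23.7%), followed by cMoP-like nuclei with 22.9% and 22.6%, NeuP-like nuclei with 22.9% and 22.2% and cluster 5 with 22.8% and 22.3%. Over all peaks, those at starts included, cDCP-like nuclei were still highest, with 18.4% and 18.2%, but NeuP-like nuclei, with 16.4% and 16.6%, stood below GMP-like nuclei, with 17.2% and 17.1%, and LMPP-like nuclei, with 16.9% and 16.8%. Away from starts it was lowest in pro-NK/T-like nuclei with 17.9% and 18.5% and EryP-like nuclei with 17.9% and 18.2%. Cluster 5, with 46.5 and 54.96 CPM of Spi1, had a share near that of NeuP-like nuclei, with 165.4 and 111.1 CPM. Pearson's r between the share and log2 Spi1 CPM over 17 populations was 0.79 and 0.80. For the other members r ran from -0.59 to 0.13 in library 1 and from -0.47 to 0.19 in library 2.

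The canonical ETS motif CCGGAAGT, which shares the letters GGAAG with the PU.1 motif, had another order. It lay in 1.14% of peaks away from starts, and its share of counts was highest in pro-NK/T-like nuclei, at 2.16% and 2.05%. Over all peaks NeuP-like nuclei were highest in library 1, with 7.90% against 7.69% in pro-NK/T-like nuclei, which stayed highest in library 2, with 7.32%. Away from starts its correlation over populations was highest with Ets1, at 0.77 and 0.73, and lowest with Etv6, at -0.66 and -0.41. NeuP-like nuclei, where Ets1 RNA was far lower, had a share of 2.03% and 1.89%.

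**Figure D5:**
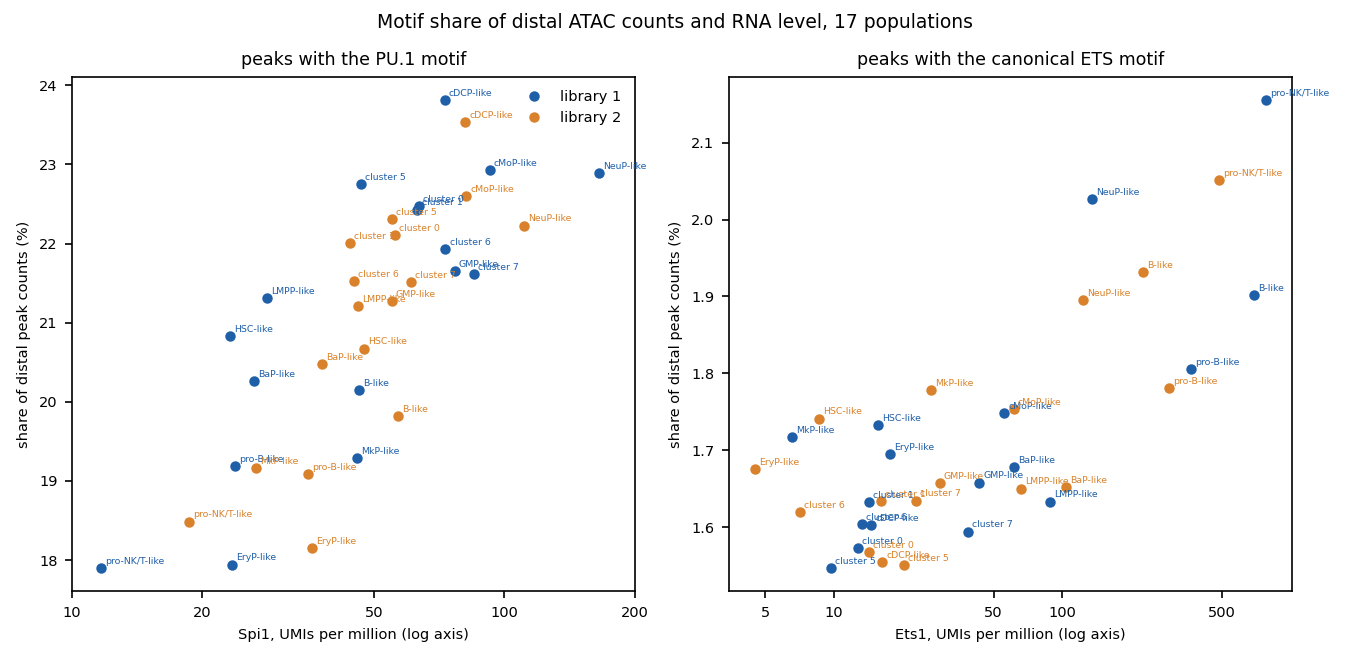
Share of distal ATAC counts in peaks with the PU.1 motif against Spi1 RNA (left) and with the canonical ETS motif against Ets1 RNA (right), both RNA axes in CPM on a log scale, 1 point per population and library (blue library 1, orange library 2). The PU.1 share rose from about 17.9% in pro-NK/T-like and EryP-like to 23.8% in cDCP-like nuclei of library 1, and the vertical axes do not start at 0.

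The genes with the most similar RNA pattern were ranked by Pearson's r of log2 CPM over 34 points, 17 populations in each of 2 libraries with library means removed, among 3944 genes with at least 500 UMIs. Spi1 was closest to Chil3, a secreted protein of neutrophil and monocyte precursors (0.81), Ncf1, a subunit of the phagocyte oxidase (0.80), and Csf2ra, a receptor of the growth factor GM-CSF (0.77). Etv6 was closest to Cacnb2 (0.84), Zfp521 (0.80) and Adgrl4 (0.80), and Ets1 to the kinase gene Prkcb (0.79), Cyth1 (0.79) and 4930523C07Rik (0.78). Erg was closest to Pdss2 (0.84), Dync2h1 (0.79) and Zranb2 (0.78), Fli1 to Atp2a3 (0.74), Inpp4b (0.62) and Lims1 (0.58), and Elf1 to Zbtb20 (0.84), Aff3 (0.83) and Tspan13 (0.80). Gabpa, on 372 UMIs, was closest to Eny2 (0.82), Snu13 (0.81) and Qser1 (0.80), and Spib, on 25 UMIs, to Ighm (0.60), Bcr (0.56) and Aff1 (0.54). Among the members themselves the strongest relation was an opposite one, between Etv6 and Ets1 (-0.64), and Erg and Fli1, close relatives in sequence, had an r of 0.12.

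Other genes of the ETS pathway were taken from lists, and of these some are named here after their values were seen. Of 18 other ETS family genes, 7 reached 100 UMIs per library, 5 of them differed at least 2-fold between the highest and the median population, against 36.1% of genes, and 3 had the same highest population, against 27.0%. These were Elk3, with 197 and 166 CPM in LMPP-like nuclei, Elk4, with 180.2 and 158 CPM in pro-B-like nuclei, and Ets2, with 124 and 64.3 CPM in NeuP-like nuclei. Of 13 partners, 12 were measured, 7 differed at least 2-fold (36.1% of genes) and 6 had the same highest population (27.0% of genes). Gata2, which binds beside ERG and FLI1 in stem and mast cells, was highest in BaP-like nuclei, with 869 and 510.2 CPM. Irf8, which binds composite sites with PU.1, was highest in cDCP-like nuclei, with 1034 and 877 CPM, and Irf4, another such partner, missed the minimum with 130 and 29 UMIs.

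Of 14 genes known as PU.1 targets in myeloid cells, 11 were measured, 10 differed at least 2-fold, against 36.1% of genes, and 8 had the same highest population, against 27.0%. Lysozyme (Lyz2) had 1385 and 994 CPM in NeuP-like nuclei, 37.5 and 20.5 times the median, the integrin Itgam 476 and 479.6 CPM, and the G-CSF receptor Csf3r 176 and 205 CPM, also highest there. The GM-CSF receptor chain Csf2rb was highest in cMoP-like nuclei, with 111 and 143 CPM, and Btk, the kinase of B cell receptor signalling, in B-like nuclei, with 175 and 169.9 CPM. Of 10 megakaryocyte targets of ERG and FLI1, 2 were measured, and Itga2b had 469 and 372 CPM in MkP-like nuclei. Vwf and Pf4 were also highest there but missed the minimum, with 58 and 57 and with 46 and 27 UMIs. Several listed genes were among the markers used to name populations, so their place in these is not independent of the names.

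Between the libraries, over all nuclei, the median gene was lower in library 2 by a log2 ratio of -0.39, and the members are read against it. Spi1 had 48.6 and 50.6 CPM, a ratio of 0.06 (-0.18 to 0.30), or 0.45 relative to the median gene, and the ratio turned to -0.22 with CPM over all UMIs. Ets1 had 114 and 47.3 CPM, a ratio of -1.27 (-1.48 to -1.07), or -0.88 relative to it. It was the 1 member of 7 that was at least 2-fold lower in library 2, against 4.80% of genes, and 0 members were at least 2-fold higher, against 0.282%. The count of 1 became 4 with CPM over all UMIs and 0 with median-of-ratios scaling, where the Ets1 ratio was -0.92. Spib missed the UMI minimum and enters no such count. Over all nuclei it had 3.92 and 0.341 CPM on 23 and 2 UMIs, a ratio of -3.53 (-6.65 to -1.51), or -3.14 relative. Erg had 199 and 103 CPM (-0.95, or -0.56 relative), Etv6 1071 and 584 CPM (-0.87, or -0.49), Elf1 407 and 237 CPM (-0.78, or -0.39), Gabpa 38.4 and 25.03 CPM (-0.62, or -0.23) and Fli1 378 and 266 CPM (-0.51, or -0.12). Library 1 held 1052 pro-B-like and 192 B-like nuclei and library 2 held 516 and 82, and of the 669 Ets1 UMIs of library 1 the pro-B-like nuclei held 383 and the B-like nuclei 75. Within the pro-B-like nuclei Ets1 had 365 and 293 CPM, with overlapping intervals, and within the B-like nuclei 692 CPM (544 to 867) and 227 CPM (97.8 to 446), with intervals apart. Etv6 and Elf1 were lower in library 2 in 17 of 17 populations, with intervals apart in 12 and 8, but the median of genes with at least 20 UMIs per library was itself lower in 15 of them. Spi1 was lower in 8 and higher in 9, with no interval apart. The ATAC levels of the windows differed between the libraries beyond their intervals in 1 population of 1 member, Spib. What set the libraries apart was not tested, and ligature, the mice and the library preparation cannot be told apart.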

How the data were processed

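The authors deposited 1 matrix of raw counts, which per the file headers were made with Cell Ranger ARC 2.0.0, aligned to GRCm38 (mm10): UMIs per gene and ATAC counts per peak, with both samples under barcode suffixes 1 and 2. Other columns hold gene start intervals, peak positions and barcodes. Kept nuclei (200 genes or more, 1000 to 50000 ATAC counts) were clustered on RNA and ATAC jointly in Seurat 5.3.0 (R 4.3.3) at resolution 0.8, with libraries aligned, and named from at least 3 marker genes, by a naming rule completed after marker tables were seen. The members and lists were chosen with earlier results of these data known. Counts were summed per population and library, and no test across samples was possible with 1 sample per group. Named genes were the 8 members, the 3 genes most like each, the start peak and the 2 peaks of largest ratio per member, and up to 4 genes per list. Other peaks are named after their values were seen. How strand was used in counting was not stated in the methods or headers read. A doublet caller marked 3 and 0 nuclei, and no nucleus was removed as a doublet. PCR copies of ATAC fragments are not independent.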

Additional observations from a re-analysis of the deposited data

How the results depend on the processing

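No paired analysis was possible because every group held 1 sample and the libraries belong to no group. Of the member counts, that of members at least 2-fold lower in library 2 was 1, 4 with CPM over all UMIs and 0 with median-of-ratios scaling. With a minimum of 500 genes per nucleus, which left 4169 and 1988 nuclei and 11 ranked populations, 4 members still reached the UMI minimum, 3 of them with the same highest population in RNA, against 7 of 7, and 2 of them at 2-fold, against 5 of 7. The 55 peaks that passed the 2-fold rule became 31 at 500 counts per peak, 14 with 500 genes and 34 with ATAC counts made binary. The peaks still tested and the share over all peaks were not taken at these settings, so the counts do not show whether the share changed. The PU.1 share of 23.7%, the mean of the libraries in cDCP-like nuclei, became 72.9% with the shorter motif GAGGAA, 18.3% over all peaks, where NeuP-like nuclei fell below GMP-like and LMPP-like nuclei, 22.6% with 500 genes, then highest in cluster 5, and 23.3% with binary counts. The log2 ratio of Spi1 between libraries, 0.06, turned to -0.22 with CPM over all UMIs. No ratio of 2-fold or more changed sign among the 7 members that reached the UMI minimum. The highest population of Fli1 and Ets1 was the same under all alternatives run for them, 7 and 6. That of Spi1 changed in library 2 with a minimum of 25 nuclei, an alternative chosen after seeing the data, to pDCP-like nuclei on 2 UMIs, and those of Etv6, Elf1 and Gabpa changed under 2, 2 and 1 alternatives. Without correction between libraries Erg and Elf1 were highest in the same unnamed cluster, with 379 of its 382 nuclei in the pro-B-like population. Low UMI counts limit the RNA order of Spi1, Spib and Gabpa.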
